A study of Bos taurus with 21 samples.

Results

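Some rows of the small RNA table from bovine serum carry exactly the same value as another row in every cow. They were selected on these values alone: among the rows with no known miRNA name, those that equalled another such row in all 21 samples were kept. This gave 67 of the 847 rows of the table, or 12.2% of its 549 unnamed rows, and they fell into 32 sets of identical rows. Of the sets, 31 were pairs and 1 held 5 rows. The rows 4_9843, 3_6921 and 7_15338, which were left out of the search, had no identical row. Each unnamed row is labelled with a chromosome name and a number, such as 15_29469, and is called a numbered row here. A set is called by its rows and is counted once, since its rows hold 1 series of values.

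The RNA came from extracellular vesicles (EVs) of serum, taken from 7 cows with clinical mastitis, 7 cows with subclinical mastitis and 7 healthy cows. Mastitis is inflammation of the udder, and in its subclinical form no visible signs are present. Breed, age, the cause of the mastitis and any treatment are not given in the sources used here, and the labels name no agent or allele. Values are a signal, in reads per 1000000 numbered reads of a library, and whole reads were recovered from them. The base of this signal is the numbered scaling total, which is lower than the summed reads of the numbered rows.

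MicroRNAs (miRNAs) pair with messenger RNAs and lower their output, and EVs from many tissues carry them in blood. A miRNA can be encoded by several genes with the same mature sequence, on 1 chromosome or on several, and candidate hairpins can also be predicted on both strands of 1 site. A short read that matches several such places equally well cannot be assigned to 1 of them. The table gives no sequence and no coordinate for the numbered rows, so none is printed here, and no gene name or role was given to them.

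The rows of a set nearly always had neighbouring numbers. Of the 31 pairs, all had 1 chromosome name in both rows. In 30 pairs the numbers were 1 apart, as in 15_29469 and 15_29470. In the remaining pair, 5_11667 and 5_11669, they were 2 apart. The set of 5 rows (2_4121, 8_17452, 10_20808, 18_33682 and 27_42089) was the only one spread over several chromosome names. The sets touched 21 of the 37 chromosome or scaffold names in the numbered rows. The numbers run through the names in blocks, since no name's number range overlaps that of another.

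Neighbouring numbers were uncommon in the table, and most pairs that had them were identical. Among all numbered rows 34 pairs had numbers 1 apart, and 30 of these were identical in every cow. Numbers 2 apart gave 17 pairs, of which 1 was identical. None of the 5325 pairs on 1 chromosome name with numbers over 10 apart was identical. Of 144985 pairs with different chromosome names, 10 were identical, and all of these lie within the set of 5 rows.

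**Figure D1:**
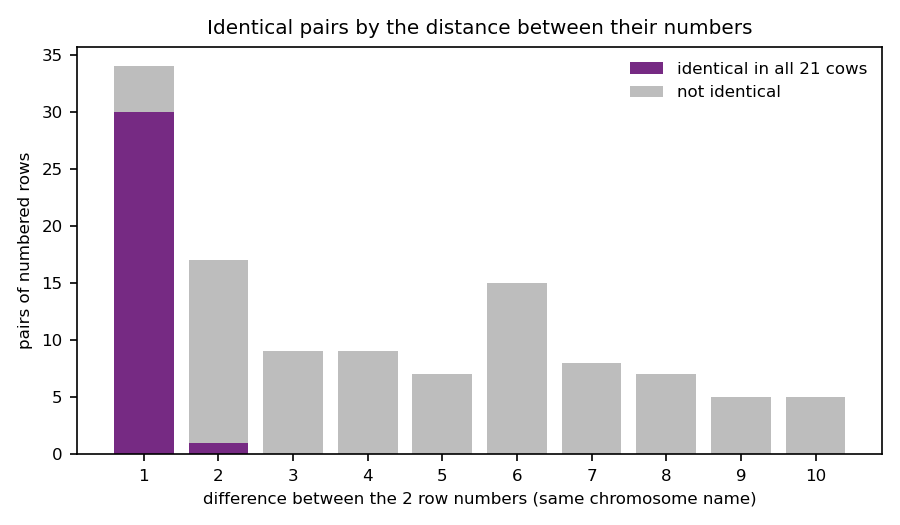
Pairs of numbered rows with the same chromosome name (vertical axis, count) by the difference between their numbers (horizontal axis, 1 to 10). The purple part, identical in all 21 cows, is 30 of 34 pairs at a difference of 1, 1 of 17 at a difference of 2, and 0 at each difference from 3 to 10.

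The 4 pairs with numbers 1 apart that were not identical show how different neighbours could be. In 3 of them a further row follows or precedes a member pair. Row 8_17027 had 87 reads over all cows, against 2225 for its neighbour 8_17026, which is a member, and the 2 rows differed in 21 of 21 cows. Row 7_15481 had 53 reads against 85 for member 7_15480 and differed in 18 cows. Row 15_29110 had 12 reads against 34 for member 15_29111 and differed in 6 cows. The fourth pair, 17_32006 and 17_32007, held no member and had 94 and 30 reads. A row number next to that of a member was thus not always accompanied by the same values.

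Equality rests on more reads in some sets than in others. The sets had from 11 to 9911 reads over all cows, with a median of 87.5. The 3 sets with the fewest reads were 4_7933 and 4_7934 with 11 reads in 3 cows, 29_44473 and 29_44474 with 14 reads in 9 cows, and 29_44131 and 29_44132 with 15 reads, all in subclinical 7. In each of these 3 sets most of the equal values are 0. Among the rows with a known miRNA name, 53 were identical to another named row, in 20 sets. None of these 20 sets reached 10 reads and 9 of them had 1 read, whereas all 32 numbered sets had at least 10. Few reads were also uncommon among the other 482 numbered rows, of which 19 (3.94%) had fewer than 10.

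Just outside the rule lay rows that differ from another in few cows. By the rule for near misses, which took the 5 most abundant pairs differing in 1 to 3 cows, every pair contained 5_9943, a row with 131 reads in 2 clinical cows. Its partners 3_6522, 14_28170, 29_44131, 29_44132 and 2_4222 had 38, 33, 15, 15 and 11 reads. The largest difference of a pair in a single cow was 72 to 99 reads. These pairs are alike through shared 0 values and not through shared levels. A closer near miss, named after its values were seen, was 29_43994. It had 37 reads and differed by 1 read, in healthy 3, from the member pair 29_43991 and 29_43992, which had 38. For comparison, 3_6921 and 7_15338 had 1673 and 1631 reads and were equal in 10 of 21 cows.

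The sets held a small part of the numbered reads. Counted once each, they took 3.08% ± 0.50 of the distinct numbered reads in clinical cows, 3.71% ± 0.45 in subclinical cows and 3.68% ± 0.39 in healthy animals (SD, n = 7 each). The lowest, median and highest cow had 2.42, 3.40 and 3.53% in the clinical group, 3.11, 3.75 and 4.20% in the subclinical group, and 3.19, 3.57 and 4.44% in the healthy group. Clinical cows 1, 3 and 4 lay below every other cow, while the other clinical cows lay within the range of the other groups. No test was made of this sum, since the rows were chosen with the data known. In RNA taken from all the vesicles of a serum sample, fewer vesicles from a source and less RNA per vesicle cannot be told apart. A share also falls when other rows gain reads, which cannot be told apart from these either.

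Counting each row of a set separately raised that share to 5.99% ± 0.95 in clinical, 7.20% ± 0.85 in subclinical and 7.12% ± 0.76 in healthy animals (SD, n = 7 each). The numbered rows of a library sum to 8.71 to 18.4% more reads than the total to which they were scaled. The rows of the sets beyond the first of each came to 25.4 to 35.6% of this surplus. Whether identical rows count the same reads was not tested. With each set counted once the rows still exceeded the scaling total by 5.99 to 13.8%.

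**Figure D2:**
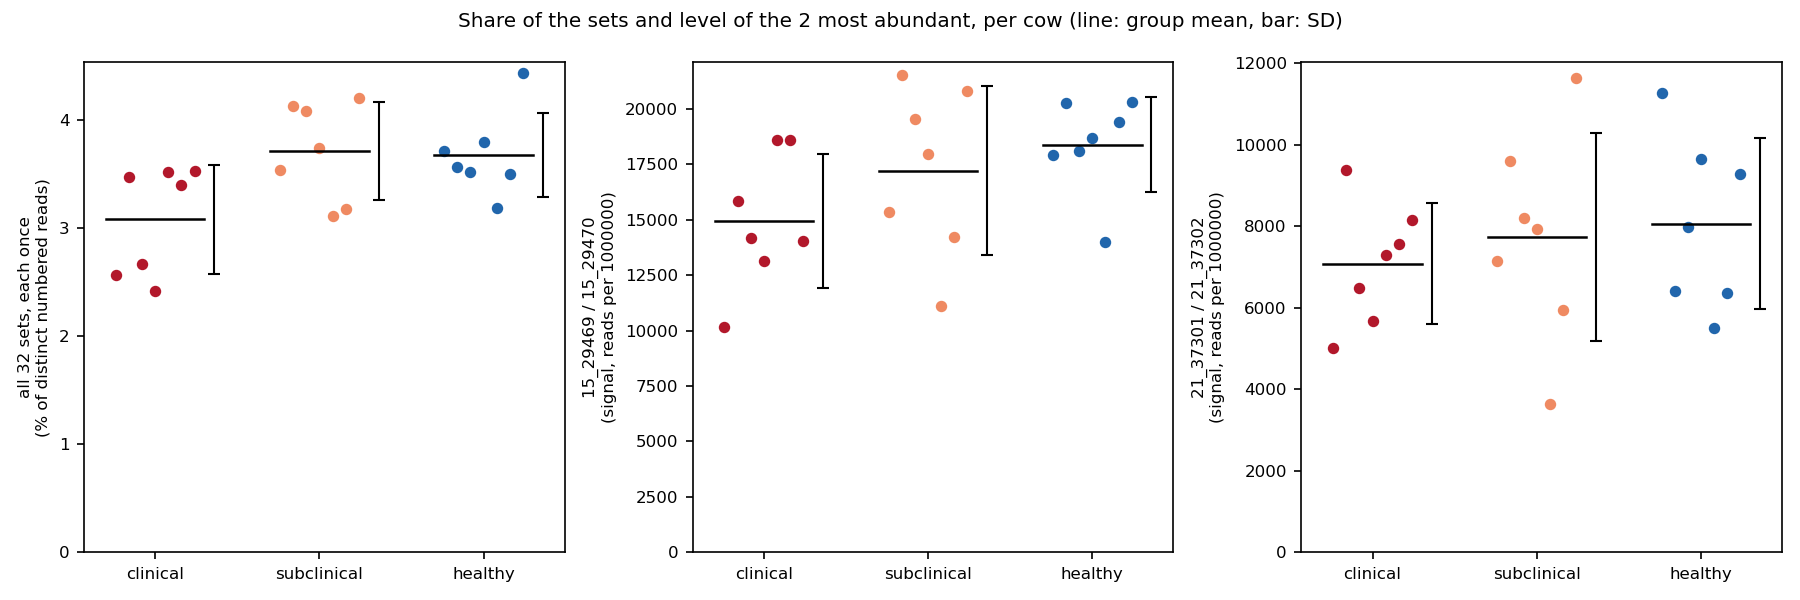
Each point is 1 cow, in the order of its number within its group, with the group mean (line) and SD (bar). The left panel gives the share of distinct numbered reads in all 32 sets, each counted once (%), and the other panels the signal (reads per 1000000 numbered reads) of the 2 most abundant sets. Shares run from 2.42 to 4.44%, and the groups overlap in all 3 panels.

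The leading 2 sets, 15_29469 and 15_29470 and then 21_37301 and 21_37302, held 65.0% of all reads in the sets. The 15_29469 and 15_29470 pair was the ninth most abundant of the 514 distinct numbered rows. Its lowest, median and highest signal was 10167, 14149 and 18606 in clinical cows, 11088, 17932 and 21523 in subclinical cows, and 13998, 18677 and 20300.1 in healthy cows. The means were 14925 ± 3026 in clinical, 17200.3 ± 3814 in subclinical and 18376 ± 2156 in healthy animals (SD, n = 7 each). The groups overlapped, and no comparison passed (limma, lowest adjusted p = 0.668).

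The pair 21_37301 and 21_37302 had 5018, 7286 and 9376 (lowest, median, highest) in clinical cows, 3650.3, 7932 and 11622 in subclinical cows, and 5492, 7975 and 11268 in healthy cows. Its means of 7079 ± 1488 in clinical, 7727 ± 2554 in subclinical and 8061 ± 2099 in healthy animals (SD, n = 7 each) stand in the same order as those of the first pair. The spread between cows was larger than the differences, and the lowest limma adjusted p was 0.880.

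Another 3 sets had a mean signal over 1000. The most abundant of these was 8_17025 and 8_17026, at 3786 ± 1050 in clinical, 3766 ± 459 in subclinical and 3501 ± 485 in healthy animals (SD, n = 7 each). The pair 24_39799 and 24_39800 had 1681 ± 537, 1719.9 ± 773 and 1574 ± 697 in clinical, subclinical and healthy cows. The pair 13_26895 and 13_26896 had 1320.3 ± 424, 1893 ± 621 and 1636 ± 491 in the same order. All 3 were read in every cow, and their lowest limma adjusted p values were 0.856, 0.871 and 0.456. Among the 5 sets over 1000 the SD was 11.7 to 44.9% of the mean within a group.

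Below that level 18 sets had a mean signal of 100 to 1000 and 9 sets had less than 100, where 1 read is worth 22.4 to 88.3 units. The pair 9_19419 and 9_19420 was read in every cow and had 573 ± 217 in clinical, 739 ± 148 in subclinical and 908 ± 257 in healthy animals (SD, n = 7 each). Its unadjusted p was 0.0341 for clinical versus healthy, but its adjusted p was 0.702 (limma). The pair 13_26383 and 13_26384 had 380.3 ± 183, 663 ± 545 and 1143 ± 1016 in clinical, subclinical and healthy cows. Its healthy mean rests on healthy 3 and healthy 7, at 3064 and 2030.0, while the healthy median was 563. No comparison passed for it (limma, lowest adjusted p = 0.460).

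Other sets of middle abundance varied more between cows of a group than between groups. The pair 23_39273 and 23_39274 ran from 175 to 1856 in clinical, from 0 to 3103 in subclinical and from 314 to 2098 in healthy cows. The pair 4_9091 and 4_9092 ran from 0 to 2397 in clinical, from 0 to 1507 in subclinical and from 0 to 1456 in healthy cows. The pair 1_2711 and 1_2712 had a median of 75.1 in clinical, 566 in subclinical and 99.3 in healthy cows. In its clinical and healthy groups cow 7 stood far above the rest, at 2147 and 3177. None of these 3 sets passed in any comparison (limma, lowest adjusted p = 0.679, 0.822 and 0.770).

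**Figure D3:**
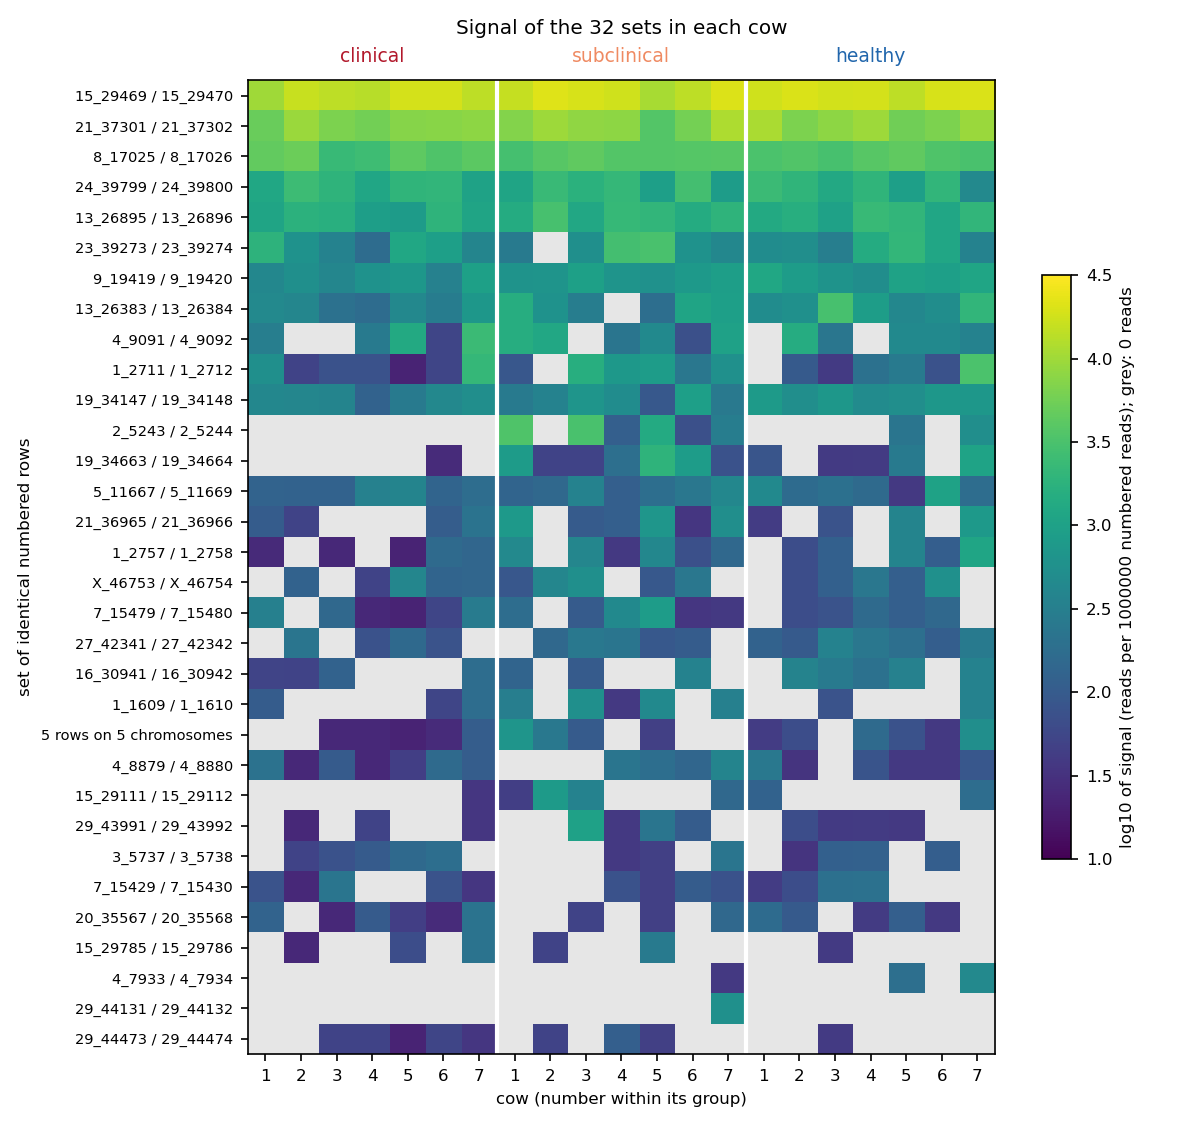
Signal of the 32 sets (rows, most abundant at the top) in each of the 21 cows (columns), on a log10 colour scale with grey for 0 reads. The top 5 sets are filled in every cow, and the rows of 2_5243 / 2_5244 and 19_34663 / 19_34664 are grey in 7 and 6 of the 7 clinical cows.

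Of the 16 sets not named by the rule, all of them pairs, only some are described, and these were picked after their values were seen. Reads were present in every cow for 19_34147 and 19_34148, at 366 ± 132 in clinical, 441 ± 291 in subclinical and 640 ± 120.3 in healthy cows, and for 5_11667 and 5_11669, at 204 ± 112, 229 ± 117 and 322 ± 347 in the same order (SD, n = 7 each). The pair 1_1609 and 1_1610 had 11 clinical, 38 subclinical and 6 healthy reads, and 29_43991 and 29_43992 had 4, 29 and 5 in the same order. In 29_43991 and 29_43992, 1 subclinical cow alone reached 1019. The pair 27_42341 and 27_42342 was read in all 7 healthy cows, at 199 ± 93.9, but in 4 clinical and 5 subclinical cows. Other sets had their highest mean in clinical cows. The pair 3_5737 and 3_5738 had 81.4 ± 72.2 in clinical, 44.3 ± 82.7 in subclinical and 55.1 ± 59.6 in healthy cows. The pair 20_35567 and 20_35568 had 77.4 ± 75.9, 35.4 ± 55.8 and 65.7 ± 63.3 in the same order. Over all 32 sets the clinical mean was the highest in 4 and the lowest in 22. Of the 16 sets not named by the rule, 15 were tested, and none passed by limma (lowest adjusted p = 0.394).

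The 5-row set was low in all groups. It had 7 reads in clinical, 23 in subclinical and 16 in healthy cows, and a mean signal of 29.5 ± 36.3, 152 ± 244 and 130.5 ± 183 in that order (SD, n = 7 each). Subclinical 1 at 665 and healthy 7 at 529.6 were its highest cows. It did not pass in any comparison (limma, lowest adjusted p = 0.747).

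Detection was alike in number across the groups. Of the 32 sets, a clinical cow had reads for 20 to 26 (median 21), a subclinical cow for 17 to 28 (median 23) and a healthy cow for 18 to 25 (median 23). Reads were present in every cow for 8 sets, and in fewer than 7 cows for 3 sets. The clinical group had the lowest mean of the 3 groups in 22 of 32 sets (68.8%), against 252 of the 482 other numbered rows (52.3%). The subclinical group had the highest mean in 17 of 32 sets (53.1%) and in 212 of the 482 other rows (44.0%). These shares are descriptions, and the difference from the other rows was not tested. They describe the deposited signal, and the sign of a change varied with the scaling and test used. Of 29 sets tested in clinical versus healthy, 19 were lower in clinical cows by limma, 20 by DESeq2 and 14 by edgeR.

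In level the sets resembled the other numbered rows. Their median mean signal was 169, with quartiles of 80.6 and 606, and that of the other 482 numbered rows was 159, with quartiles of 54.3 and 566. Every cow had reads for 8 of the 32 sets and for 131 of the other 482 rows (27.2%). The most abundant numbered row of the table, at a mean signal of 377285, had no identical row.

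For the group comparisons, limma was fitted to log2(signal + 1) of the 598 rows of the table whose signal was 1 or more in 7 or more cows, with p adjusted over all of them (Benjamini-Hochberg, threshold 0.05). Of the 32 sets, 29 passed this filter, and the 3 that did not are 15_29785 and 15_29786, 4_7933 and 4_7934, and 29_44131 and 29_44132. A set can pass the filter through 1 group alone. edgeR and DESeq2 on the recovered reads are given beside limma.

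The first comparison, clinical versus healthy, concerns visible disease against health. By limma 0 of 29 sets passed in clinical versus healthy, as did 0% of all rows tested, with 4 sets (13.8%) and 37 of 598 rows (6.19%) at an unadjusted p under 0.05. edgeR called 0 sets against 0.167% of all rows, with 3 sets (10.3%) and 54 rows (9.03%) at an unadjusted p under 0.05. By DESeq2 4 sets (13.8%) and 56 rows (9.36%) had an unadjusted p under 0.05. It called 1 of the 19 sets to which it gave an adjusted p, against 2.82% of the 354 such rows. That set was 19_34663 and 19_34664, averaging 3.80 ± 10.1 in the clinical group and 213 ± 384 in the healthy group (SD, n = 7 each), with a log2 change of −4.77 (DESeq2 adjusted p = 0.0297; limma 0.533, edgeR 0.160). Healthy 7, the shallowest library, held 12 of its 23 healthy reads, and without it the healthy mean was 71.8, the DESeq2 log2 change −3.33 and its adjusted p 0.543. The call was made in 9 of the 21 DESeq2 fits that left out 1 library. It was lost without clinical 1, 2, 3 or 4, without subclinical 4, 5 or 6, and without healthy 1, 3, 4, 5 or 7. The median limma log2 change was −0.25 over the sets and −0.12 over all rows. By edgeR, with size factors per block, both medians were 0.03, and by DESeq2 they were −0.20 and −0.12. No set had all clinical cows above or below all healthy cows, which held for 0.334% of all rows tested.

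The second, subclinical versus healthy, concerns disease that is not visible. By limma 0 of 29 sets passed in subclinical versus healthy, against 2.01% of all rows tested, with 1 set (3.45%) and 80 rows (13.4%) at an unadjusted p under 0.05. edgeR called 0 sets against 1.51% of all rows, with 2 sets (6.90%) and 75 rows (12.5%) at an unadjusted p under 0.05. DESeq2 called 0 sets against 2.23% of the 493 rows to which it gave an adjusted p, with 2 sets at an unadjusted p under 0.05, against 11.9% of the rows tested. The lowest limma adjusted p, 0.159, belonged to 2_5243 and 2_5244. It averaged 1204 ± 1498 in the subclinical group and 108 ± 204 in the healthy group (SD, n = 7 each), an 11.1-fold ratio of means with 5 of 7 subclinical cows above the healthy mean. Without healthy 7 the healthy mean was 38.1 and the ratio 31.6-fold, and the set then passed limma (adjusted p = 0.0227) and DESeq2 (0.0379) but not edgeR (0.0579). It also passed limma without subclinical 2 (adjusted p = 0.0269). Healthy 7 had the highest healthy signal of this set, and subclinical 2 was the only subclinical cow without reads of it. Leaving out either cow therefore widens the difference. Of the 21 fits that left out 1 library, the set passed in 2 by limma, 0 by edgeR and 1 by DESeq2. The median limma log2 change was 0.11 over the sets and 0.26 over all rows. In subclinical versus healthy no set had groups that did not overlap either, against 0.334% of all rows tested.

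The last comparison set clinical against subclinical cows, and here 2 sets fell in clinical cows: 19_34663 and 19_34664, and 2_5243 and 2_5244. For clinical versus subclinical these are 2 of 29 sets (6.90%), against 4.01% of all rows in either direction and 3.85% lower, so the share lies near the background. edgeR called the same 2 sets, also lower, against 5.85% of all rows in either direction and 5.52% lower. DESeq2 called these 2 of the 23 sets it gave an adjusted p, against 8.51% of such rows. Each of these sets counts as 2 rows in a plain list of calls: the 24 limma calls held 4 member rows and came to 22 distinct rows (3.89% of 566). The median limma log2 change was −0.42 over the sets and −0.37 over all rows. By edgeR the medians were −0.19 and −0.08, and by DESeq2 −0.33 and −0.21.

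The pair 19_34663 and 19_34664 had 0 reads in 6 clinical cows and 26.6 units, or 1 read, in clinical 6. Its lowest, median and highest signal was 50.3, 192 and 1871 in subclinical cows and 0, 40.5 and 1059 in healthy cows. Every subclinical cow was above every clinical cow, as for 1.67% of all rows tested, while the healthy cows overlapped both groups. In whole reads the groups met, since subclinical 2, subclinical 3 and clinical 6 had 1 read each, worth 50.3, 51.0 and 26.6 units. The mean was 3.80 ± 10.1 in clinical and 561 ± 679 in subclinical cows (SD, n = 7 each), and all 7 clinical cows were below the subclinical mean. By limma the log2 change was −7.25 with an SE of 1.56 (adjusted p = 0.00984). With 50 in place of 1 added to the signal it was −2.66 (limma adjusted p = 0.0358). edgeR gave −5.94 (adjusted p = 0.00682) and DESeq2 −6.36 (adjusted p = 0.000192). With 1 clinical read against 93 subclinical reads, the subclinical share of the numbered scaling total was 151 times the clinical one. The 95% exact interval of that ratio, 26.4 to 6022, covers counting error only. Without subclinical 5, the highest cow, the subclinical mean was 343 in place of 561. It passed in all 21 limma fits that left out 1 library each (highest adjusted p = 0.0319) and in all 21 edgeR fits (0.0206).

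The pair 2_5243 and 2_5244 had no read in any clinical cow, at 0 of 267440 reads of the summed numbered scaling totals. Such a count limits the share to at most 0.00112%, from 3 reads and for counting error only. In subclinical cows its signal was 3414 in cow 1, 3160.2 in cow 3, 1369 in cow 5, 302 in cow 7, 115 in cow 4, 70.7 in cow 6 and 0 in cow 2. Healthy 5 and healthy 7 had 229 and 529.6, and the other 5 healthy cows had 0. Most of its 182 subclinical reads thus came from 3 cows, and subclinical 2 had none, like the clinical cows. Against the limit of 3 reads over the clinical group, its pooled share of 0.110% in subclinical cows was 98.4-fold higher. This ratio takes the subclinical reads as exact and leaves out the variation between cows. The limma log2 change of clinical versus subclinical was −7.86 (SE 1.80, adjusted p = 0.0115), with 7 of 7 clinical cows below the subclinical mean. With 50 in place of 1 added to the signal it was −3.25 (limma adjusted p = 0.0248). edgeR gave −7.99 (adjusted p = 0.00939) and DESeq2 −7.79 (adjusted p = 0.000341). Leaving out any 1 library kept it past the threshold, with a highest adjusted p of 0.0373 by limma and 0.0233 by edgeR.

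**Figure D4:**
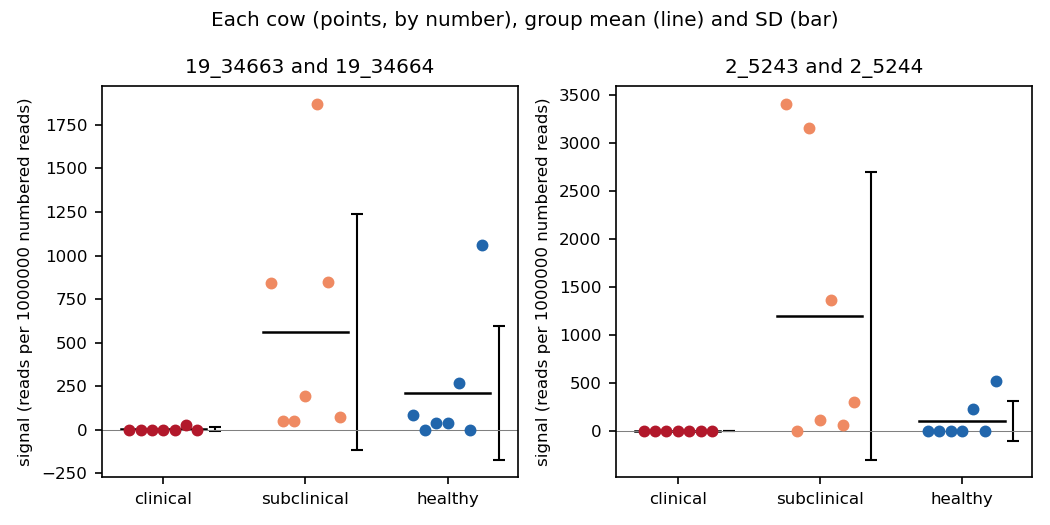
Signal (reads per 1000000 numbered reads) of the 2 sets that passed clinical versus subclinical; each point is 1 cow in the order of its number, with the group mean (line) and SD (bar, drawn below 0 where it exceeds the mean). Clinical cows lie at 0 except clinical 6 at 26.6 in the left panel, while subclinical cows run from 50.3 to 1871 on the left and from 0 to 3414 on the right.

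A few measures moved with the groups beside these sets. The numbered scaling totals were 27948 to 44607 reads in clinical, 19619 to 28297 in subclinical and 11330 to 30213 in healthy libraries. Their sums were 267440, 164874 and 168258 reads in the same order. Known miRNAs made up 3.24 to 54.7% of both scaling totals in clinical, 13.5 to 51.3% in subclinical and 4.77 to 32.9% in healthy libraries. Healthy 7 and healthy 5, the only healthy cows with reads of 2_5243, had the highest known shares of their group, at 32.9 and 14.9%. In subclinical cows 1 to 7 the known shares were 23.6, 13.5, 40.1, 51.3, 49.6, 35.4 and 49.1%. Their reads of 2_5243 and 2_5244 were 77, 0, 62, 3, 30, 2 and 8 in the same order. Clinical 1 to 5 and clinical 7 had 0 reads of both sets, and clinical 6 had 1 read of 19_34663 and 19_34664. The hepatocyte miRNAs miR-122 and miR-885 took 0 to 0.237% of known reads in clinical, 0.0628 to 2.79% in subclinical and 0 to 0.438% in healthy cows, with miR-885 at 0 in clinical cows. Red cell, leukocyte and endothelial miRNAs were read in all groups, at 0.365 to 2.61%, 2.09 to 8.66% and 3.11 to 38.6% of known reads, and epithelial miRNAs took at most 0.210%. The part of any of these in the difference was not tested.

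Other sets with few reads in clinical or healthy cows did not pass or were not tested. The pair 15_29111 and 15_29112, named after its values were seen, had 1 clinical, 28 subclinical and 5 healthy reads, with subclinical 2, 3 and 7 holding 805, 357 and 151 of signal. It did not pass clinical versus subclinical (limma adjusted p = 0.394, edgeR 0.0612), but passed edgeR without subclinical 4, 5 or 6 (adjusted p = 0.0383, 0.0492 and 0.0398). Subclinical 4, 5 and 6 had no reads of this pair, so leaving out any of them raises the subclinical mean. Those passes are therefore no further evidence of a difference. The pair 4_7933 and 4_7934 was also at 0 in clinical cows, of a summed numbered scaling total of 267440 reads. Its reads lay mostly in healthy cows, with 10 reads in healthy 5 and healthy 7 against 1 in subclinical 7. The pair 29_44131 and 29_44132 had its 15 reads, a signal of 566, in subclinical 7 alone. Neither this pair nor 4_7933 and 4_7934 passed the filter, so neither was tested. The pair 29_44473 and 29_44474 had 8 clinical, 5 subclinical and 1 healthy read, and its unadjusted p of 0.0439 for clinical versus healthy did not pass adjustment (limma adjusted p = 0.762).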

How the data were processed

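Small RNA of serum EVs from 21 cows was sequenced. The labels' protocols name miRNeasy Mini extraction and TruSeq small RNA libraries from 3 µg of RNA. Per the submitters' processing notes, Bowtie, edgeR and the ARS-UCD1.2 build were used, with no role or version named. Trimming, miRNA prediction and the handling of reads with several matches were not given in the sources used here. Values were deposited by the authors as a signal in reads per 1000000, scaled separately for known and numbered rows. Each block sums to more than 1000000, so the values were not treated as TPM.

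Within each library and block, reads were recovered from the smallest step, which divided 10115 of 10115 nonzero values evenly (tolerance 0.05 reads). Rows were compared on deposited values. limma 3.58.1 with an intensity trend was fitted to log2(signal + 1) over 21 samples with 3 group means (18 residual degrees of freedom), two-sided. edgeR 4.0.16 (quasi-likelihood) and DESeq2 1.42.0 used recovered reads with size factors per block, in R 4.3.3. The fits were tested on simulated data. Alternatives covered pseudocount, filter, scaling, identical rows entered once, pairing and single libraries. Group means in the table were not used. The members, lists and tests were chosen with earlier results of these data known. Named sets are the 10 most abundant, those called by limma or edgeR, the 3 with most rows, those on several chromosome names and the 3 with fewest reads.

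Between libraries of a group, chi-square over its degrees of freedom was 5.97 or more over distinct numbered rows, so none was a repeat of another within sampling noise.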

Additional observations from a re-analysis of the deposited data

Results flagged for a closer look

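Within a group of 7 cows, 1 cow was far from the others, by a gap that took up most of the group's range, in 12 of the 54 groups looked at. Chance gives about 1 in 20 for normally distributed values only. Many of these values are 0 or rest on few reads, so 12 of 54 cannot be set against that share. Where the other cows are at or near 0, a single read is enough.

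In clinical cows, the pair 1_2711 and 1_2712 had a signal of 2146.84 in clinical 7, with the next cow at 549. The set of 2_4121, 8_17452, 10_20808, 18_33682 and 27_42089 had 107.34 in clinical 7, with the next at 26.6. The pair 19_34663 and 19_34664 had 26.62 in clinical 6, with the others at 0.

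In subclinical cows, the 5-row set had 664.98 in subclinical 1, with the next at 251. In subclinical 7, the pair 29_44131 and 29_44132 had 566.02 and the pair 4_7933 and 4_7934 had 37.73, with the other cows at 0 for both.

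In healthy cows, healthy 7 stood apart for the pair 1_2711 and 1_2712 (3177.41, next 267), the pair 19_34663 and 19_34664 (1059.14, next 267) and the 5-row set (529.57, next 162). This library was the shallowest, at a numbered scaling total of 11330 reads, with 1 read worth 88.3 units. Healthy 2 had 1456.33 for the pair 4_9091 and 4_9092, with the next at 458. Healthy 3 had 39.29, or 1 read, for the pair 29_44473 and 29_44474. Healthy 5 was low for the pair 15_29469 and 15_29470, at 13998.02, with the next at 17910.5.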

How the results depend on the processing

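The identity of rows did not depend on the unit: equal recovered reads gave the same 67 rows in 32 sets, and so did a minimum of 10 reads per set. The count of 2 sets in clinical versus subclinical held with pseudocounts 10 and 50, no filter, median-ratio scaling, no trend, each set entered once and each set once in the numbered total. The size of the changes did depend on the pseudocount. With 10 the limma log2 change was −4.45 for 19_34663 and 19_34664 and −5.06 for 2_5243 and 2_5244. With 50 these changes were −2.66 and −3.25. The count was 0 when a signal was required in 14 cows, where neither set was tested. It was 1 by limma and 1 by edgeR without the seventh library of every group, a choice made after seeing the data, since 2_5243 and 2_5244 then had too few cows with reads to be tested. Without 1 library it was 2 by limma, 2 to 3 by edgeR and 2 by DESeq2. The count of 0 in clinical versus healthy became 1 by DESeq2. Without 1 library it was 0 by limma and edgeR and 0 to 1 by DESeq2, and such edgeR and DESeq2 fits were added after seeing the data. That of 0 in subclinical versus healthy was 0 to 1 without 1 library, being 1 by limma without healthy 7 or subclinical 2 and 1 by DESeq2 without healthy 7.

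The replicate number as a block left 2 sets in clinical versus subclinical and 0 in the other comparisons. Cows with the same number did not deviate together (correlation −0.12 to 0.31 over 21 pairs, 3 of them above 0.1), and 4 of 21 samples correlated best with their own number. Of the 14 named sets that were not called, 4_7933 and 4_7934, and 29_44131 and 29_44132, did not pass the filter and are not counted here. For the rest no fit passed (lowest adjusted p = 0.134). The sign of their change turned in 61 of 491 alternatives and in 534 of 2211 fits without 1 library. At 1 read worth up to 88.3 units, sets under a signal of 100 rest on few reads.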
